A study of Mus musculus castaneus and Mus musculus domesticus and Mus musculus with 11 samples.

Results

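The genes described here are 33 components of the integrated stress response and the unfolded protein response. They were chosen by symbol and found by Ensembl gene ID among the 27071 genes of a mouse read matrix. The matrix held 32 of the 33, and all 32 passed the filter on low counts that left 14839 genes for testing. Atf6 was not analysed here. The 32 genes were 3 stress sensors (Eif2ak3, Eif2ak4 and Ern1), 18 genes of the ATF4 branch and 11 genes of the endoplasmic reticulum (ER) chaperone branch.

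Polyadenylated RNA was sequenced from motor neuron cultures grown from mouse stem cells, to ask how alike the lines of a study of neurite growth are in their transcripts. The lines were a CASTx129 hybrid (hybrid), the wild-derived CAST/EiJ (CAST) and the laboratory strain 129S6/SvEv (129), with 3 libraries each. The labels name no treatment, no day of differentiation and no sorting step. A further 2 CAST samples were not analysed here. Whether replicate libraries stem from different cultures, and whether a line is a single clone, is not in the labels, so the p-values reflect the spread among these samples alone.

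When proteins misfold in the ER, or when amino acids or haem run short, kinases phosphorylate the translation factor eIF2-alpha, which lowers protein synthesis overall but favours translation of the transcription factor ATF4. ATF4 then switches on genes of amino acid synthesis and uptake and, under lasting stress, the pro-apoptotic factor CHOP. In a parallel branch the ER sensors IRE1 and ATF6 raise chaperones and the machinery that degrades misfolded proteins, IRE1 by splicing the RNA of Xbp1. Motor neurons are known for their sensitivity to ER stress. PERK, GCN2, IRE1 and ATF4 are regulated largely by phosphorylation, splicing or translation, none of which a count of reads per gene records.

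Total counts ran from 7763077 in hybrid 2 to 18167577 in 129 1. All 8 motor neuron markers were in the matrix, and Lhx3, which helps to specify motor neurons, was at 0 in hybrid 1. Their summed level was 98.0 to 140.0 CPM (counts relative to the scaled library size) in hybrid, 119 to 234 CPM in CAST and 121 to 456 CPM in 129. Markers of fibroblasts, 12 of 12 in the matrix and none at 0 in any library, summed to 1109 to 19480 CPM in hybrid, 886 to 4439 CPM in CAST and 3914 to 18509 CPM in 129. Transcripts that mark other cells were thus present in every library, and in bulk RNA fewer cells of a type and less RNA per cell cannot be told apart. CAST 1 and hybrid 2 stood apart from the other libraries by exon length, taken as all annotated exons of a gene merged. Their relative log2 expression changed by −0.49 and −0.60 per doubling of exon length over 14830 genes. The transcripts present can be shorter than this length. Hybrid 3 was at −0.25, and the other 6 libraries were between 0.07 and 0.31. Medians of the sensors, the ATF4 branch and the ER branch are given with and without CAST 1 and hybrid 2. For most single genes only the library values and the fold changes with all libraries are given.

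Few of the stress genes differed between the lines beyond their spread. Ddit3, which encodes CHOP, was lower in hybrid than in both parental lines, with 0 counts in all 3 hybrid libraries. It was among 41 genes with 0 counts in every hybrid library and at least 20 in each parental library. Whether reads of the hybrid libraries were assigned to genes in another way was not tested. Ppp1r15a, which encodes the phosphatase subunit GADD34 that reverses the phosphorylation of eIF2-alpha, was lower in hybrid than in CAST. No ER chaperone and no sensor passed the threshold in any comparison.

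EdgeR's quasi-likelihood test, at a Benjamini-Hochberg adjusted p under 0.05 over all 14839 genes, called 1 of 32 members in hybrid against 129, where 7.02% of all tested genes were called. It called 2 of 32 in hybrid against CAST, where the background was 6.00%. It called 0 of 32 in CAST against 129, where the background was 0.917%. There, 2 members had an unadjusted p below 0.05, and neither DESeq2 nor limma-voom called any (0 each). A joint test among the 3 lines called 1 of 32, against 8.03% of all genes. All called members were lower in hybrid, and the genes called lower in hybrid made up 1.60% of all tested genes against 129 and 1.60% against CAST. Members called lower made up 3.125% of the 32 against 129 and 6.25% against CAST. With only 1 and 2 members called, these shares do not set the 32 genes apart. The libraries of the compared lines did not overlap in 11 of 32 members in hybrid against 129, in 5 of 32 in hybrid against CAST and in 5 of 32 in CAST against 129. Over all tested genes this held for 37.5%, 19.2% and 28.6% in the same order of comparisons.

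**Figure D1:**
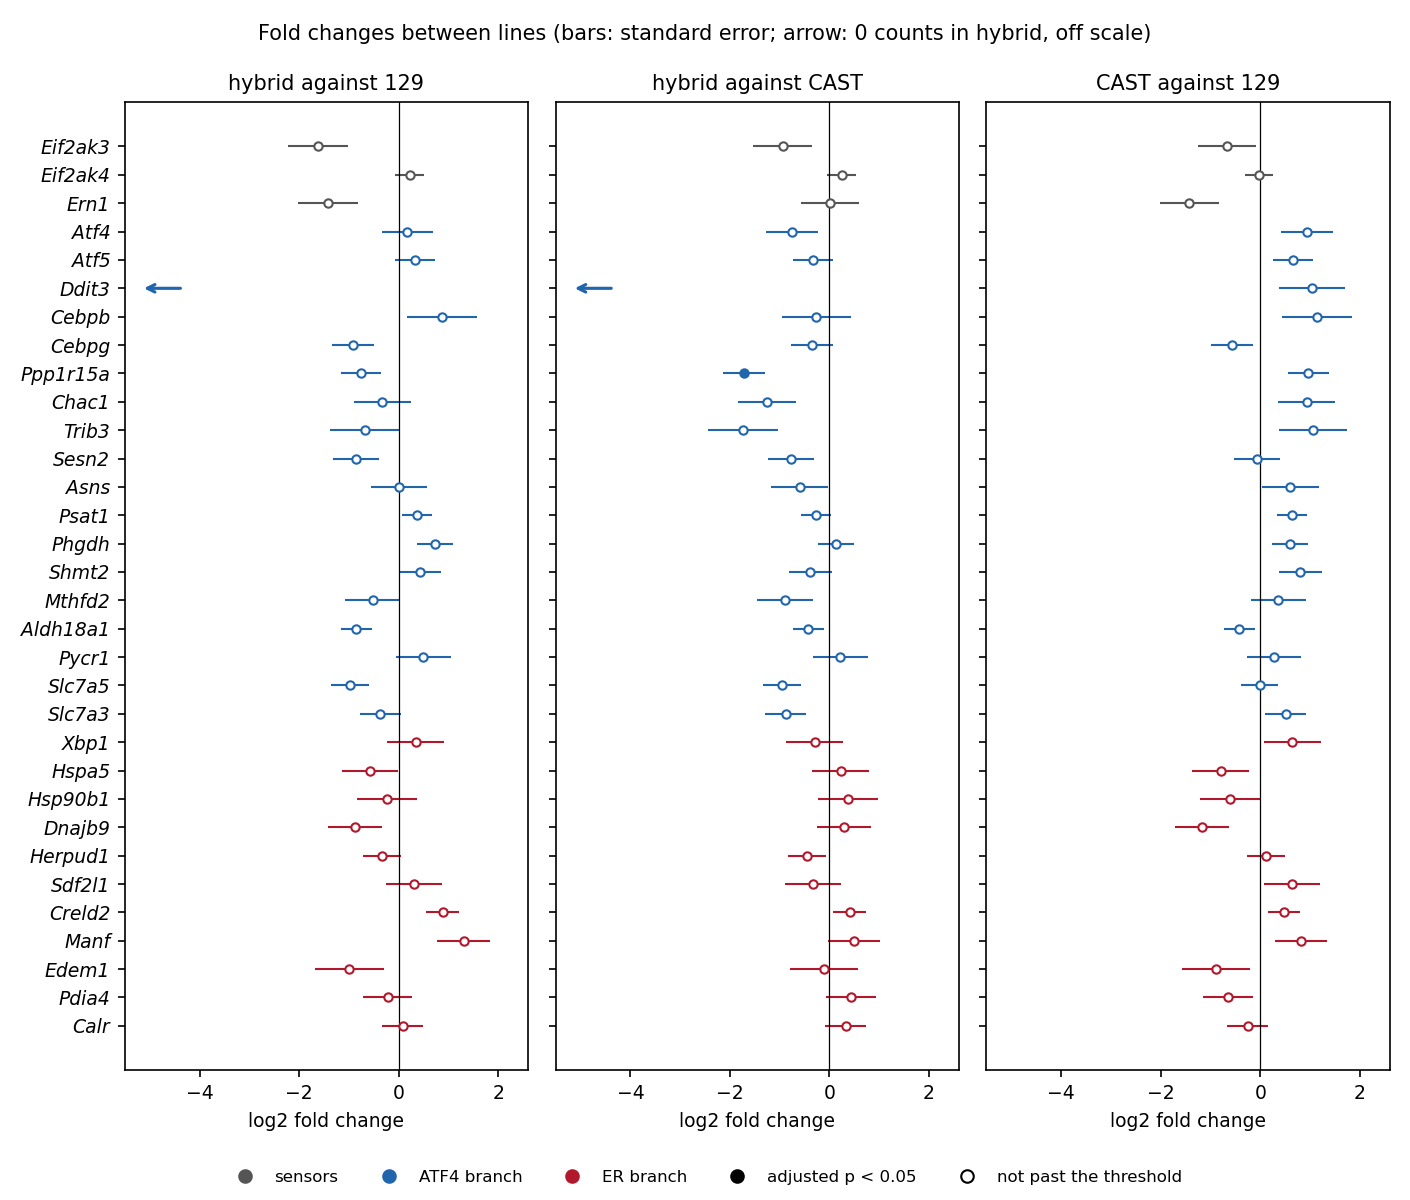
Log2 fold changes of the 32 genes in 3 panels (hybrid against 129, hybrid against CAST, CAST against 129), with 1 gene per row, sensors in grey, the ATF4 branch in blue and the ER branch in red. Bars are standard errors, filled points passed the threshold of 0.05, and arrows mark Ddit3, called and off scale, with 0 counts in hybrid. The filled point is Ppp1r15a in hybrid against CAST.

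Among the sensors, Eif2ak3 encodes PERK, the ER-resident kinase of eIF2-alpha. It was at 39.4, 11.9 and 14.9 CPM in hybrid 1 to 3, 17.1, 38.6 and 71.7 CPM in CAST 1 to 3, and 76.4, 62.9 and 64.3 CPM in 129 1 to 3. All hybrid libraries lay below all 129 libraries, while CAST spanned most of the range and overlapped both. In hybrid against 129 its log2 fold change was −1.62 ± 0.59 (SE, edgeR adjusted p = 0.159), which did not pass the threshold. Ern1, which encodes IRE1-alpha, the kinase and nuclease that splices Xbp1 RNA, was at 27.2, 7.13 and 10.9 CPM in hybrid, 5.88, 15.4 and 23.7 CPM in CAST and 34.5, 46.9 and 39.8 CPM in 129. Every 129 library was above every library of the other lines, and hybrid and CAST overlapped. Its log2 fold change was −1.42 ± 0.60 in hybrid against 129 (SE, edgeR adjusted p = 0.206) and −1.43 ± 0.60 in CAST against 129 (edgeR adjusted p = 0.317), and neither passed.

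Eif2ak4 encodes GCN2, the kinase that senses uncharged transfer RNA. It was at 55.4, 36.3 and 41.6 CPM in hybrid, 39.2, 37.5 and 35.8 CPM in CAST and 35.4, 39.6 and 39.5 CPM in 129. The 3 lines overlapped, and hybrid 1 alone stood above the others. Eif2ak4 had the narrowest range of the 3 sensors, and its log2 fold changes were 0.22 ± 0.29 in hybrid against 129, 0.24 ± 0.29 in hybrid against CAST and −0.02 ± 0.29 in CAST against 129 (SE; edgeR adjusted p = 0.640, 0.808 and 0.974). The 3 sensors have 6026, 7457 and 8173 exonic bases, and Eif2ak3 and Ern1 were lowest, within their lines, in CAST 1 and hybrid 2. Without both CAST 1 and hybrid 2, the median log2 fold change of the sensors was −1.07 in hybrid against 129 and −0.32 in CAST against 129, beside −1.42 and −0.68 with all libraries. In hybrid against CAST it was 0.01 with all libraries and changed sign with single libraries: it was −0.73 without hybrid 1, 0.38 without hybrid 2, 0.19 without hybrid 3, −0.35 without CAST 1, 0.02 without CAST 2 and 0.20 without CAST 3. Without both CAST 1 and hybrid 2 it was close to 0. It was −2.18 in hybrid against 129 without hybrid 1, and −1.28 in CAST against 129 without CAST 3.

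Atf4 encodes the transcription factor at the centre of the integrated stress response. It was at 147, 203 and 146 CPM in hybrid, 514, 119 and 205 CPM in CAST and 125, 145 and 168 CPM in 129. CAST 1 stood far above the other 8 libraries, CAST 2 was the lowest of the 9, and the lines overlapped. Atf4 had a log2 fold change of 0.18 ± 0.51 in hybrid against 129, −0.76 ± 0.52 in hybrid against CAST and 0.93 ± 0.52 in CAST against 129 (SE; edgeR adjusted p = 0.842, 0.598 and 0.417). Atf5, a related factor of the same family, was highest in CAST 1 too, at 162 CPM, and between 54.6 and 101 CPM in the other 8 libraries.

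Ddit3 (ENSMUSG00000025408, GRCm38 chromosome 10, 127290774 to 127296288, plus strand) had 0, 0 and 0 counts in hybrid, 1153, 370 and 407 counts in CAST, and 544, 507 and 366 counts in 129. All hybrid libraries were empty and all parental libraries were well above the limit that a count of 0 allows. Scaled to depth, Ddit3 was at 119, 20.8 and 29.2 CPM in CAST and 30.2, 30.9 and 21.0 CPM in 129, so CAST 1 was the highest and the parental lines overlapped. With a floor of 3 counts over the group (0.0843 CPM), Ddit3 was at least 325-fold lower in hybrid than in 129 and at least 553-fold lower in hybrid than in CAST, a bound that covers counting error only. EdgeR gave adjusted p = 0.00262 against 129, 0.00193 against CAST and 0.00311 in the joint test. In CAST against 129 the log2 fold change was 1.04 ± 0.67 (SE, edgeR adjusted p = 0.475).

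The absence of Ddit3 reads in hybrid was shared with other genes. In all, 41 genes had 0 counts in every hybrid library and at least 20 counts in each of the 6 parental libraries, against 3 such genes for CAST and 0 for 129. Conversely, 80 genes had at least 20 counts in every hybrid library and 0 counts in all parental ones, against 6 for CAST and 13 for 129. Among the 41 were Tuba1b, an abundant alpha-tubulin of dividing and growing cells, and the membrane protein gene Myadm, both chosen after their values were seen. Tuba1b had 0 counts in hybrid 1 to 3, 367, 225 and 145 in CAST and 1120, 1183 and 1532 in 129, and Myadm had 0 in hybrid, 2351 to 5379 in CAST and 5744 to 10156 in 129. Of the exonic bases of Ddit3, 6.13% overlap another annotated gene on its own strand and 4.73% a gene on the other strand. Mars, the methionyl-tRNA synthetase gene that overlaps Ddit3 in antisense, was read in every library, with 810 to 1523 counts in hybrid, 1156 to 1435 in CAST and 1605 to 1744 in 129. Whether reads of the hybrid libraries were assigned to genes in another way was not tested, so 0 counts need not mean that CHOP was not transcribed in hybrid.

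Ppp1r15a (ENSMUSG00000040435, GRCm38 chromosome 7, 45522916 to 45526268, minus strand) is itself an ATF4 target and closes the feedback loop on eIF2-alpha. It was at 41.5, 29.1 and 28.2 CPM in hybrid, 167, 59.0 and 99.1 CPM in CAST and 57.2, 60.0 and 49.4 CPM in 129. Every hybrid library was below every parental library, CAST 1 and CAST 3 were above all others, and CAST 2 fell among the 129 libraries. The mean was 32.9 ± 7.47 CPM in hybrid, 108 ± 54.9 CPM in CAST and 55.5 ± 5.49 CPM in 129 (SD, n = 3 each). Ppp1r15a had a log2 fold change of −1.72 ± 0.42 in hybrid against CAST (SE, edgeR adjusted p = 0.0408), −0.75 ± 0.41 in hybrid against 129 (edgeR adjusted p = 0.295) and 0.97 ± 0.41 in CAST against 129 (edgeR adjusted p = 0.324). The joint test did not pass (edgeR adjusted p = 0.0698). Over 17 alternative settings the adjusted p in hybrid against CAST ran from 0.00228 to 0.133, and the call held in 7 of them. It ended with the replicate block, without CAST 1 or CAST 3, without each single hybrid or 129 library, and without both CAST 1 and hybrid 2, where the log2 fold change was as small as −1.15.

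The other transcription factors of the branch did not pass the threshold and differed in their order. Cebpb, a partner of CHOP, was at 11.1, 33.4 and 9.5 CPM in hybrid, 43.3, 8.14 and 13.3 CPM in CAST and 11.8, 11.7 and 5.80 CPM in 129. CAST 1 and hybrid 2 were both far above the rest, and the lines overlapped. Of its exonic bases, 20.7% overlap an antisense gene, and the strand setting of the counts is not given. Cebpg, which pairs with ATF4, had another order of lines, at 18.9 to 47.0 CPM in hybrid, 25.7 to 54.6 CPM in CAST and 51.8 to 67.9 CPM in 129. Its hybrid libraries were all below 129 (log2 fold change −0.92 ± 0.42, SE, edgeR adjusted p = 0.231).

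Trib3, a pseudokinase that damps ATF4, was at 5.80, 3.49 and 1.19 CPM in hybrid, 23.0, 4.32 and 7.74 CPM in CAST and 5.67, 5.12 and 5.98 CPM in 129. Chac1, which degrades glutathione, was at 7.15, 8.94 and 6.57 CPM in hybrid, 35.0, 5.61 and 13.6 CPM in CAST and 8.78, 9.09 and 10.5 CPM in 129. In both genes CAST 1 was the highest library, and hybrid and 129 overlapped. In hybrid against CAST the log2 fold change was −1.73 ± 0.71 for Trib3 and −1.26 ± 0.58 for Chac1 (SE; edgeR adjusted p = 0.262 and 0.338). Sesn2, a stress-induced inhibitor of mTORC1, ran from 29.9 to 76.0 CPM in hybrid, 60.0 to 120 CPM in CAST and 64.3 to 113 CPM in 129, and the lines overlapped.

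**Figure D2:**
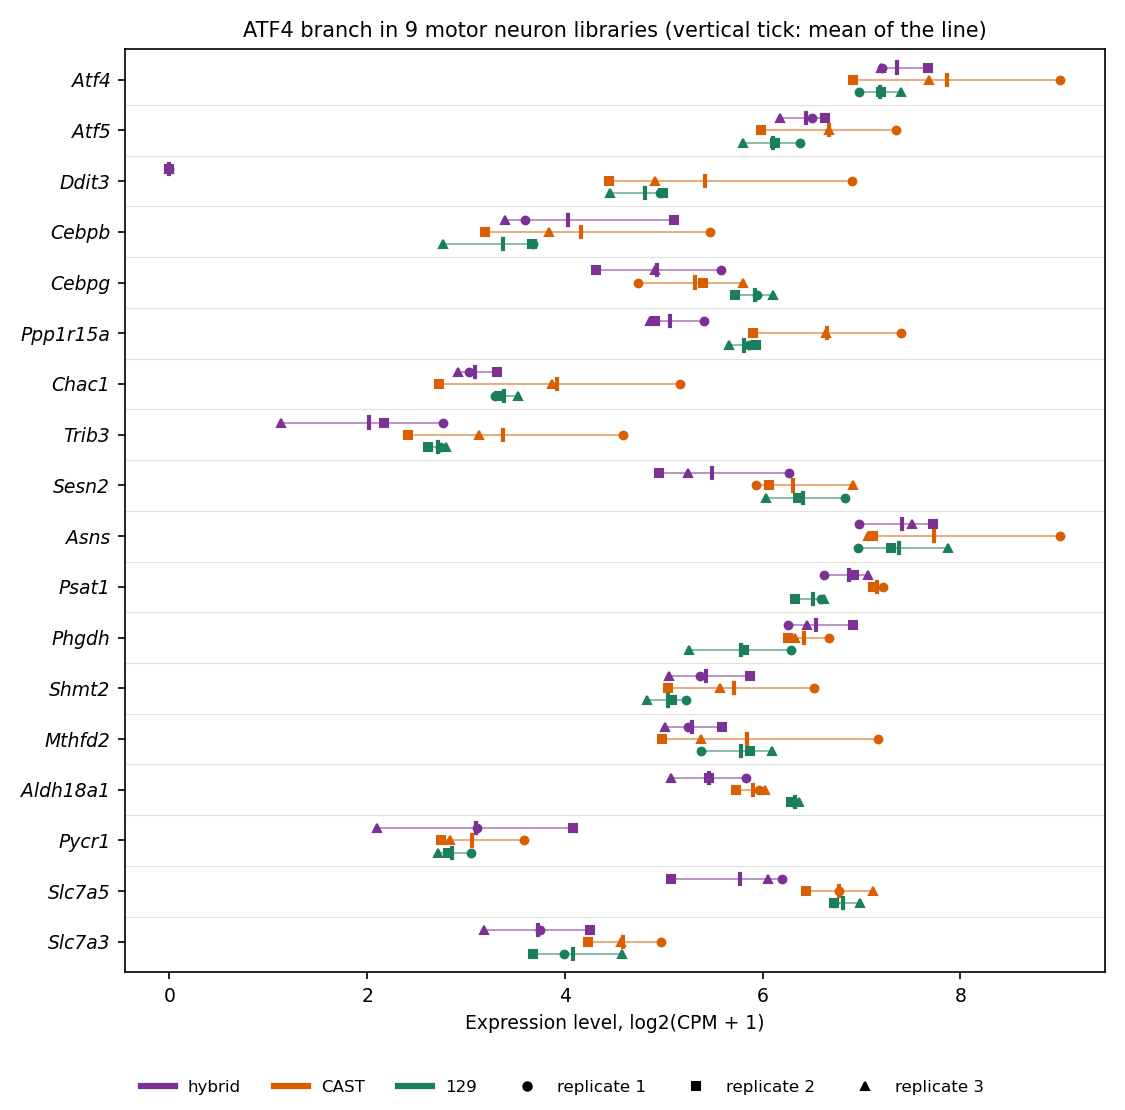
Expression level of the 18 genes of the ATF4 branch, as log2(CPM + 1), in 9 libraries. Each gene has 3 rows of points for hybrid (purple), CAST (orange) and 129 (green), shapes mark the replicate number and the vertical tick is the mean of the line. CAST 1 is the highest point of 12 of the 18 genes, and the hybrid points of Ddit3 are at 0.

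The enzymes of amino acid and one-carbon metabolism showed no call. Asns, the asparagine synthetase and a classical ATF4 target, was at 125, 211 and 182 CPM in hybrid, 515, 137 and 133 CPM in CAST and 124, 157 and 234 CPM in 129. Mthfd2, a mitochondrial enzyme of the folate cycle, was at 37.0, 47.1 and 31.2 CPM in hybrid, 142, 30.7 and 40.4 CPM in CAST and 40.6, 57.6 and 67.3 CPM in 129. In both, CAST 1 was the highest library. CAST 2 and CAST 3 were within the range of the other lines, except that CAST 2 was the lowest of the 9 libraries for Mthfd2. Shmt2, which feeds that cycle from serine, was at 91.1 CPM in CAST 1 and at 27.5 to 57.7 CPM in the other 8 libraries. Of the serine synthesis genes Phgdh and Psat1, Psat1 was the steadier. Psat1 was at 97.5, 120 and 133 CPM in hybrid, 148, 138 and 139 CPM in CAST and 95.6, 79.2 and 97.3 CPM in 129. Its 3 lines did not overlap, with CAST above hybrid and hybrid above 129, but the log2 fold change of 0.64 ± 0.30 in CAST against 129 did not pass (SE, edgeR adjusted p = 0.358). Phgdh was at 75.4 to 119 CPM in hybrid, 75.6 to 101 CPM in CAST and 37.3 to 77.0 CPM in 129.

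Aldh18a1, which starts proline synthesis from glutamate, was at 56.1, 43.0 and 32.8 CPM in hybrid, 61.2, 51.9 and 64.3 CPM in CAST and 78.5, 77.4 and 81.9 CPM in 129. The 129 libraries were close together and above all others, and hybrid and CAST overlapped. In hybrid against 129 the log2 fold change was −0.85 ± 0.31 (SE, edgeR adjusted p = 0.156), and DESeq2 called it (adjusted p = 0.0355). Pycr1, a later enzyme of proline synthesis, was low, at 3.28 to 15.9 CPM in hybrid, 5.73 to 11 CPM in CAST and 5.57 to 7.28 CPM in 129. Among the transporters, Slc7a5, the large neutral amino acid carrier, was at 72.2, 32.7 and 65.4 CPM in hybrid, 108, 86.0 and 137 CPM in CAST and 104, 105 and 125 CPM in 129. All hybrid libraries lay below all parental ones, at log2 fold changes of −0.97 ± 0.38 against 129 and −0.96 ± 0.38 against CAST (SE; edgeR adjusted p = 0.178 and 0.238). Slc7a3, a carrier of cationic amino acids, ran from 8.11 to 18 CPM in hybrid, 17.8 to 30.4 CPM in CAST and 11.8 to 22.8 CPM in 129.

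As a group, the 18 genes of the ATF4 branch had a median log2 fold change of −0.35 in hybrid against 129 (8 of 18 positive), −0.68 in hybrid against CAST (2 of 18) and 0.62 in CAST against 129 (14 of 18). With Ddit3 at its bound these medians were the same. Over all 14839 genes the medians were 0.02, −0.08 and 0.06, and 50.7%, 45.4% and 52.4% of genes were positive. Both comparisons with CAST share the CAST libraries, and CAST 1 was the highest of the 9 libraries in 12 of the 18 genes. It was the highest in 25.1% of all tested genes, and in 11 of the 18 after the slope on exon length was removed. Relative to the mean of CAST 2 and CAST 3, CAST 1 was 4.77-fold higher for Ddit3, 4.03-fold for Cebpb, 4.0-fold for Mthfd2, 3.82-fold for Trib3, 3.81-fold for Asns, 3.64-fold for Chac1 and 3.18-fold for Atf4.

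Without CAST 1, and with Ddit3 set aside, the median of the remaining 17 genes was 0.10 in CAST against 129 (11 of 17 positive) and −0.25 in hybrid against CAST (8 of 17), beside 0.61 and −0.60 with all libraries. Without both CAST 1 and hybrid 2 the median was 0.09 in CAST against 129 (11 of 17 positive) and −0.22 in hybrid against CAST (3 of 17). In hybrid against 129 it was −0.45 (6 of 17). Hybrid against 129 gave −0.33 with all libraries, −0.07 without 129 3 and −0.13 without hybrid 3. Without CAST 2, hybrid against CAST gave −0.91. With the exon length offset the medians were −0.44, −0.65 and 0.33 in hybrid against 129, hybrid against CAST and CAST against 129. Of the 17 genes, 4, 1 and 13 were then positive. The summed level of the 18 genes was 948, 1090.3 and 903 CPM in hybrid, 2358, 962 and 1311 CPM in CAST and 1073, 1046 and 1147 CPM in 129. The hybrid and 129 sums were narrow, and the CAST libraries reached from within their range to more than any other.

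**Figure D3:**
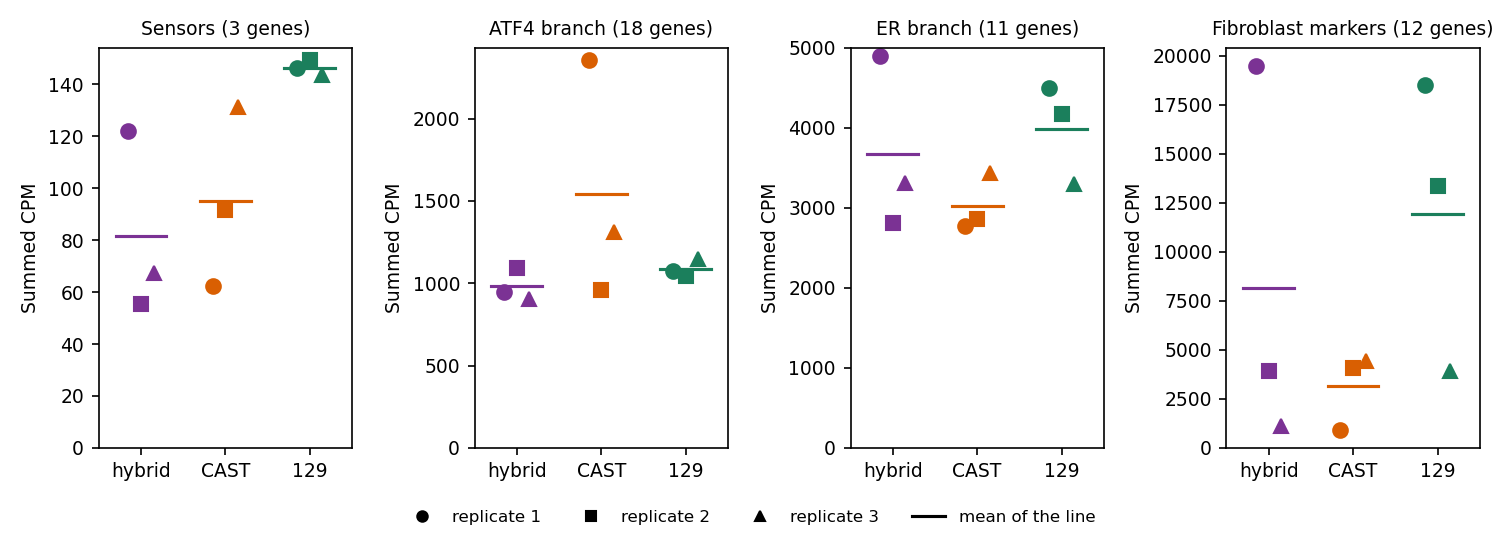
Summed CPM of the 3 sensors, the 18 ATF4 branch genes, the 11 ER branch genes and the 12 fibroblast markers in each library of hybrid, CAST and 129, with shapes for the replicate number and a line at the mean. CAST 1 is the highest library for the ATF4 branch at 2358 CPM and the lowest for the ER branch and the fibroblast markers, at 2768 and 886 CPM, and hybrid 1 is the highest for both, at 4897 and 19480 CPM.

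The ER branch held the most abundant genes of the set per kb of merged exon. Calr, which encodes the calcium-binding lectin chaperone calreticulin, averaged 385 CPM per kb of exon over the 9 libraries, Hsp90b1 (GRP94) 205 CPM per kb and Hspa5 (BiP) 181 CPM per kb. The most abundant gene of the ATF4 branch, Atf4 itself, averaged 83.5 CPM per kb. Ern1 and Pycr1 were the lowest of the 32 at 2.87 and 1.94 CPM per kb.

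Hspa5, the main Hsp70 chaperone of the ER and the usual marker of ER stress, was at 1096, 302 and 666 CPM in hybrid, 311, 614 and 843 CPM in CAST and 1134, 1049 and 892 CPM in 129. Hybrid 2 and CAST 1 were the lowest libraries, hybrid 1 was among the 129 libraries, and CAST lay below 129. The mean was 688 ± 398 CPM in hybrid, 589 ± 267 CPM in CAST and 1025 ± 123 CPM in 129 (SD, n = 3 each). Hspa5 had a log2 fold change of −0.58 ± 0.57 in hybrid against 129, 0.22 ± 0.57 in hybrid against CAST and −0.80 ± 0.57 in CAST against 129 (SE; edgeR adjusted p = 0.537, 0.924 and 0.508). Hsp90b1, the ER member of the Hsp90 family, was high and low in the same libraries, at 1439, 358 and 724 CPM in hybrid, 317, 749 and 880 CPM in CAST and 1128, 1075 and 770 CPM in 129. Hybrid 1 was the highest and CAST 1 the lowest, and the lines overlapped. Of its exonic bases, 5.38% overlap a gene on the same strand and 10.3% one on the other strand.

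Dnajb9, the co-chaperone ERdj4, was at 69.0, 17.9 and 37.6 CPM in hybrid, 16.8, 32.1 and 53.0 CPM in CAST and 77.4, 78.1 and 72.9 CPM in 129. The 129 libraries were above all others, and the log2 fold change of −1.16 ± 0.54 in CAST against 129 did not pass (SE, edgeR adjusted p = 0.361). Pdia4, a protein disulfide isomerase, and Edem1, which hands misfolded glycoproteins to degradation, had the same 2 libraries low. Pdia4 was at 125 CPM in hybrid 2 and 96.0 CPM in CAST 1, and at 199 to 354 CPM in the other 7 libraries. Edem1 was at 30.5 CPM in hybrid 2 and 20.9 CPM in CAST 1, while hybrid 3 was at 25.4 CPM and the other 6 libraries at 56.5 to 133 CPM. Calr varied less, from 1106 to 1397 CPM in hybrid, 898 to 1025 CPM in CAST and 946 to 1321 CPM in 129. All hybrid libraries were above all CAST libraries (log2 fold change 0.33 ± 0.41, SE, edgeR adjusted p = 0.823).

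Other genes of the branch were high in hybrid 2 and CAST 1 within their lines. Manf, a secreted factor induced by ER stress that protects neurons, was at 226, 440 and 246 CPM in hybrid, 392, 120 and 136 CPM in CAST and 133, 131 and 105 CPM in 129. Every hybrid library was above every 129 library, and CAST 1 fell among the hybrid ones. In hybrid against 129 its log2 fold change was 1.30 ± 0.52 (SE, edgeR adjusted p = 0.191). Among the alternatives run it passed without both CAST 1 and hybrid 2 alone, at 0.95 with an edgeR adjusted p of 0.0449, and over its 17 alternatives the adjusted p ran from 0.0449 to 0.479. Creld2, another ER stress-induced secreted protein, was at 57.9, 74.2 and 73.7 CPM in hybrid, 69.9, 39.7 and 45.9 CPM in CAST and 41.3, 37.7 and 32.3 CPM in 129. Its hybrid libraries were also all above 129 (log2 fold change 0.89 ± 0.33, SE, edgeR adjusted p = 0.160).

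Xbp1, the factor spliced by IRE1-alpha, was at 95.6, 228 and 126 CPM in hybrid, 363, 99.7 and 91.2 CPM in CAST and 109, 119 and 127 CPM in 129. CAST 1 and hybrid 2 were the highest libraries and the remaining 7 were close together. The count matrix does not part spliced from unspliced Xbp1 RNA. In CAST against 129 the log2 fold change was 0.64 ± 0.58 (SE, edgeR adjusted p = 0.580) and without CAST 1 it was −0.32. Sdf2l1, an ER chaperone cofactor, and Herpud1, a component of ER-associated degradation, were also highest in CAST 1, at 56.2 and 100.3 CPM. The remaining libraries held 12.2 to 36.2 CPM of Sdf2l1 and 41.7 to 65.4 CPM of Herpud1.

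**Figure D4:**
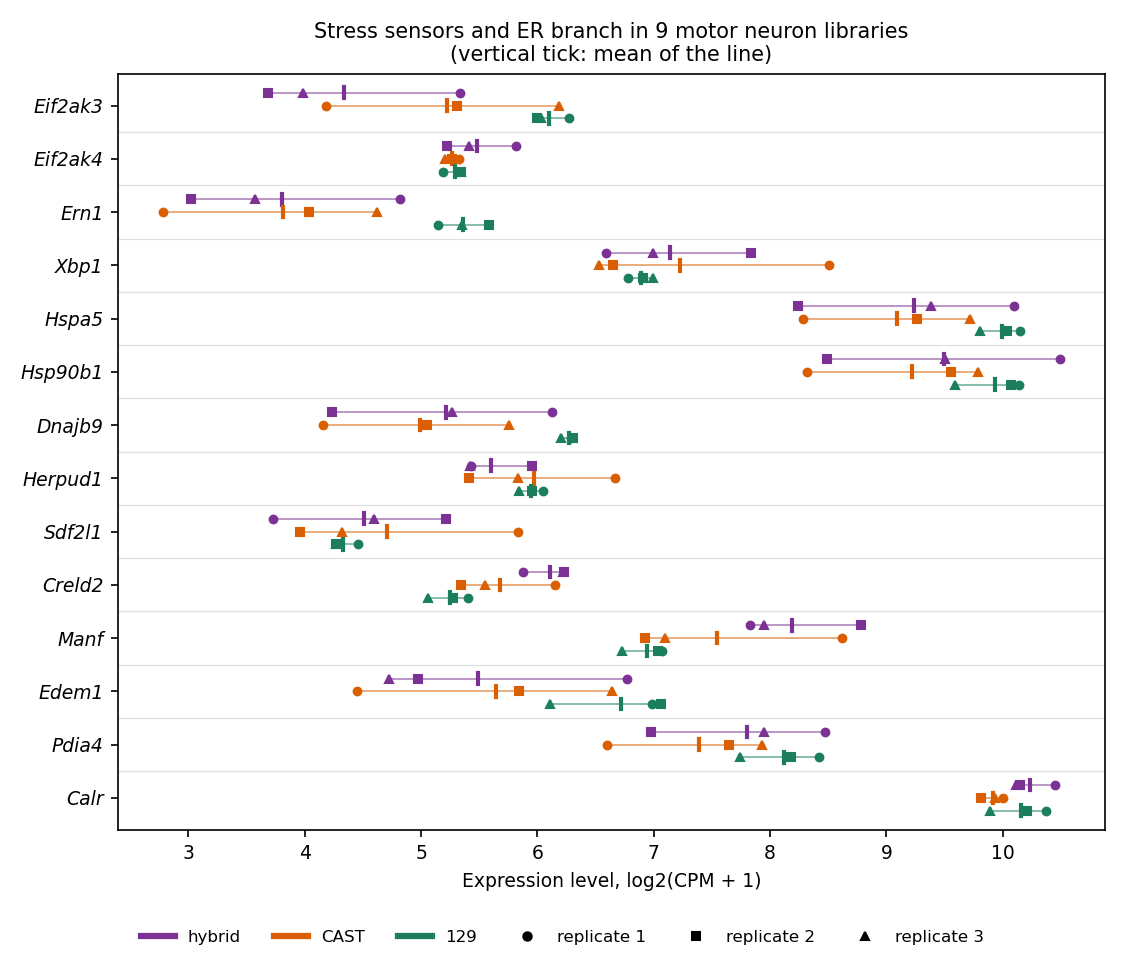
Expression level of the 3 sensors and the 11 ER branch genes, as log2(CPM + 1), in 9 libraries. Each gene has 3 rows of points for hybrid (purple), CAST (orange) and 129 (green), shapes mark the replicate number and the vertical tick is the mean of the line. CAST 1 and hybrid 2 are the lowest libraries for Hspa5 and Hsp90b1 and the highest for Xbp1 and Sdf2l1.

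The 11 ER branch genes had a median log2 fold change of −0.22 in hybrid against 129 (5 of 11 positive), 0.29 in hybrid against CAST (7 of 11) and −0.25 in CAST against 129 (5 of 11). EdgeR called 0 of 11 in each comparison, where 2, 0 and 0 had an unadjusted p below 0.05, and DESeq2 and limma-voom called 0. The hybrid against CAST median was −0.05 without hybrid 1 (4 of 11 positive) and 0.14 without CAST 1 (7 of 11). Without both CAST 1 and hybrid 2 it was 0.36 (9 of 11). In CAST against 129 the median was −0.32 without CAST 1 and −0.34 without both (2 of 11 each). Hybrid against 129 gave −0.08 without both (5 of 11). The hybrid against 129 median was −0.07 without 129 1, −0.08 without hybrid 2, −0.15 without hybrid 3 and −0.39 without 129 3, and the CAST against 129 median was −0.14 without 129 1 and −0.38 without 129 3. With the exon length offset the medians were −0.55, 0.12 and −0.40. The summed level was 4897, 2807 and 3315 CPM in hybrid, 2768, 2866 and 3442 CPM in CAST and 4498, 4171 and 3301 CPM in 129. Hybrid 1, the library with the most fibroblast marker transcripts, also had the highest ER sum, and CAST 1, with the least, had the lowest. By the mean log2 CPM of the ER branch, 129 1 was the highest at 7.45, with hybrid 1 at 7.42. On that measure CAST 2 was the lowest at 6.84, with CAST 1 at 7.03. The part of these markers in the ER branch levels was not tested.

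Within their lines, CAST 1 and hybrid 2 split most of the ER branch. CAST 1 over the mean of CAST 2 and CAST 3 was 3.8 for Xbp1, 3.35 for Sdf2l1 and 3.06 for Manf, and 0.43 for Hspa5, 0.39 for Hsp90b1 and 0.27 for Edem1. Hybrid 2 over the mean of hybrid 1 and hybrid 3 was 2.05 for Xbp1, 2.05 for Sdf2l1 and 1.86 for Manf, and 0.34 for Hspa5, 0.33 for Hsp90b1 and 0.46 for Edem1. Edem1 was lower still in hybrid 3. Calr changed little, at 1.09 in CAST 1 and 0.91 in hybrid 2, and Creld2 was at 1.63 and 1.13. Across 31 genes, leaving out Ddit3, the relative log2 level of a gene had a Pearson correlation with log2 exon length of −0.59 in CAST 1 and −0.50 in hybrid 2. Hybrid 3 had −0.26 and the other 6 libraries 0.27 to 0.56. Over all 14830 genes the correlation was −0.39 in CAST 1, −0.47 in hybrid 2 and −0.26 in hybrid 3. It was 0.07 to 0.38 in the other 6 libraries. These are correlations across genes of the same library, which share its depth and composition. Merged exon length did not order the ER branch fully. Pdia4 and Dnajb9, with 2399 and 2549 exonic bases, were low in both libraries, and Xbp1 and Manf, with 3248 and 3524, were high. This length counts all annotated exons of a gene, and the order by the transcripts present was not tested.

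**Figure D5:**
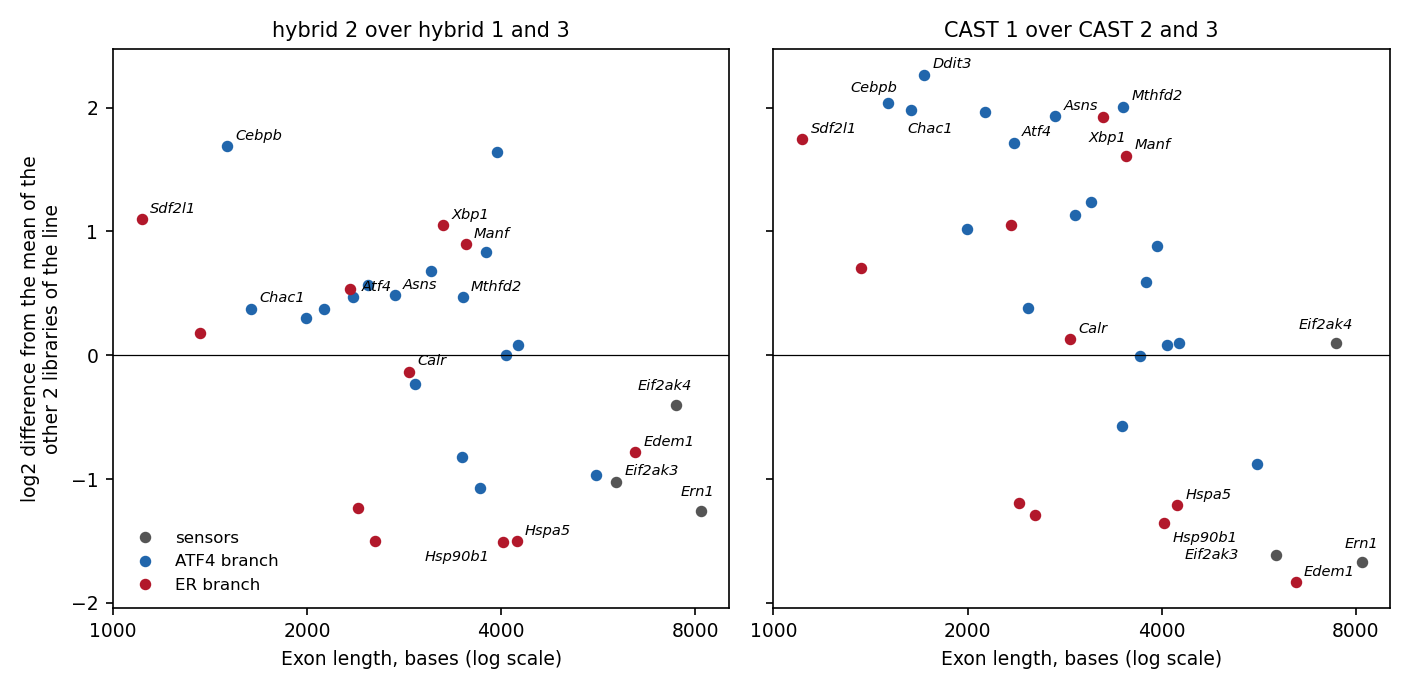
Difference in log2 level of hybrid 2 from hybrid 1 and 3 (left, 31 genes) and of CAST 1 from CAST 2 and 3 (right, 32 genes), plotted against exon length in bases on a log axis. Points are genes, coloured by sensors (grey), ATF4 branch (blue) and ER branch (red). Xbp1, Manf and Sdf2l1 lie above 0 in both panels, and Hspa5, Hsp90b1, Edem1, Eif2ak3 and Ern1 below 0.

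Further genes of the same pathways came from 2 lists of textbook members. Of 40 other genes of the integrated stress response, including transfer RNA synthetases and amino acid carriers, 39 were tested. EdgeR called 1 higher and 1 lower in hybrid against 129 (median log2 fold change −0.47), 1 higher and 2 lower in hybrid against CAST (median −0.27), and 0 in CAST against 129 (median −0.11; 0 had an unadjusted p below 0.05, and DESeq2 and limma-voom called 0). Over all tested genes, 5.41% were called higher and 1.60% lower in hybrid against 129, and 4.41% higher and 1.60% lower in hybrid against CAST. With 39 genes tested, these few calls do not set the list apart. Log2 fold changes were positive in 20.5%, 20.5% and 35.9% of the list in hybrid against 129, hybrid against CAST and CAST against 129. Over all tested genes this was 50.7%, 45.4% and 52.4%. Libraries did not overlap in 51.3%, 20.5% and 15.4% of the list, and in 37.5%, 19.2% and 28.6% of all tested genes. The list as a whole was not tested. Of 35 other genes of the unfolded protein response, 33 were tested and edgeR called 0 in all 3 comparisons, with medians of −0.43, −0.11 and −0.32. Of these 33, 1, 0 and 0 had an unadjusted p below 0.05, DESeq2 called 1, 0 and 0, and limma-voom called 0.

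Slc7a11 (GRCm38 chromosome 3), the cystine carrier that supplies glutathione synthesis, was at 235, 755 and 617 CPM in hybrid, 0.206, 6.29 and 13.4 CPM in CAST and 3.95, 7.62 and 9.997 CPM in 129. Hybrid was far above both parental lines, which overlapped. Slc7a11 had a log2 fold change of 6.22 ± 1.20 against 129 and 6.33 ± 1.20 against CAST (SE; edgeR adjusted p = 0.0126 each). The call against 129 ended without each single 129 library, with an adjusted p of up to 0.0721, and that against CAST ended without CAST 2 (0.0636). As for Ddit3, a difference in how hybrid reads were assigned to genes was not tested for Slc7a11, Slc6a9 or Slc1a4.

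Slc6a9, the glycine carrier GlyT1, was at 4.10, 1.68 and 4.26 CPM in hybrid, 27.4, 21.8 and 42.0 CPM in CAST and 27.4, 32.5 and 54.1 CPM in 129. Hybrid lay below both parental lines, with log2 fold changes of −3.48 ± 0.50 against 129 and −3.16 ± 0.49 against CAST (SE; edgeR adjusted p = 0.00289 and 0.00462). Both calls held in 17 of 17 alternatives, and 30.2% of its exonic bases overlap an antisense gene. Slc1a4, a carrier of alanine, serine and cysteine, was at 24.7, 10.6 and 19.1 CPM in hybrid, 49.7, 81.3 and 84.3 CPM in CAST and 39.5, 49.1 and 61.8 CPM in 129. Hybrid was again below all parental libraries, and the log2 fold change of −1.98 ± 0.41 against CAST passed (SE, edgeR adjusted p = 0.0185), while −1.46 ± 0.40 against 129 did not (SE, edgeR adjusted p = 0.0639). The call against CAST held in 12 of 17 alternatives. It ended with the replicate block and without hybrid 2, hybrid 3, CAST 2 or CAST 3, with an adjusted p of up to 0.0774.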

How the data were processed

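The deposited matrix holds counts, whole numbers of reads per Ensembl gene in 9 libraries, with no normalization by the authors that the values show. The submitters' processing notes name STAR and the mm10 build. Which version, counting tool, annotation and strand setting were used is not given in the sources used here. Symbols, coordinates and exon lengths were looked up by gene ID in GENCODE's GRCm38 annotation (27030 IDs matched, 41 did not). Exon length is that of all annotated exons of a gene, merged, and not that of a single transcript.

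Genes were kept by filterByExpr (minimum count 10, minimum total 15, minimum proportion 0.7). EdgeR 4.0.16 (R 4.3.3) scaled the counts by TMM and fitted its quasi-likelihood model, with the robust option, to all 3 groups together without covariates. P-values are two-sided, with Benjamini-Hochberg adjustment over 14839 genes and a threshold of 0.05. Levels are CPM on TMM-scaled library sizes, and standard errors (SE) derive from the F statistic. The scripts were tested on simulated data.

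Alternatives were other size factors, library totals alone, no filter, DESeq2 1.42.0, limma-voom (limma 3.58.1), a replicate block, an exon length offset, leaving out each library, and leaving out both CAST 1 and hybrid 2. The members, lists and rules were chosen with earlier results of these data known. Values of every library are given for members past the threshold, the sensors, Atf4 and Hspa5. Library values of other members were added after they were seen. Of other pathway genes, up to 3 called per direction and comparison, averaging 5 CPM or more, were named.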

Additional observations from a re-analysis of the deposited data

How the results depend on the processing

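The count of 1 member in hybrid against 129 was 2 with DESeq2 (Ddit3 and Aldh18a1) and 2 without both CAST 1 and hybrid 2 (Ddit3 and Manf). The count of 2 in hybrid against CAST was 1 without both libraries and 1 to 2 when single libraries were left out. In the joint test the count of 1 was 2 with DESeq2, 2 with the exon length offset (Ddit3 and Ppp1r15a each time) and 1 to 2 when single libraries were left out. In CAST against 129 it was 0 in every alternative run. The labels do not say that replicate numbers pair the libraries. Of 9 same-number pairs, 2 had correlated deviations above 0.1 (range −0.72 to 0.49). With the replicate block the hybrid against CAST count was 1, Ddit3, and no other call on a member changed. Over all genes the block left 561, 526 and 6 calls in hybrid against 129, hybrid against CAST and CAST against 129, of 1041, 891 and 136. DESeq2 gave 2100, 1597 and 939 calls and limma-voom 1138, 998 and 263. The exon length offset gave 246 calls in CAST against 129. Leaving out single libraries gave 522 to 1717, 643 to 923 and 26 to 157 calls. Ddit3 stayed called against both parental lines in 17 of 17 alternatives, with an adjusted p of at most 0.0118. All of them used the same counts, 0 in every hybrid library, so they say nothing on how hybrid reads were assigned to genes. No called member changed its direction. Members that were not called changed sign more often: 11 of 32 in hybrid against CAST and 8 of 32 in CAST against 129 without CAST 1, and 6 of 32 in hybrid against 129 without hybrid 2. The cause was not tested. With 3 libraries per line and their spread, small differences in these genes could not be resolved.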
